A study of Sus scrofa with 12 samples.

Results

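Cell cycle genes were followed in skeletal muscle of newborn pigs over the first 3 weeks of life. A list of 46 gene symbols was matched to the array's probe table, and every probe set that carried one of them was kept, with no filter on signal. This gave 39 probe sets of 24123 on the array, which stood for 30 genes of the 6765 with a symbol. The other 16 symbols (ASPM, BUB1, BUB1B, CCNE2, CDC2, CDK1, CENPA, CENPE, KIF11, MCM6, MCM7, MKI67, PRC1, TK1, TPX2 and ZWINT) were carried by no probe set in that table, in which 13826 probe sets have no symbol. By the known role of the protein, 8 genes (14 probe sets) were put in S phase and 16 genes (19 probe sets) in mitosis. A further 6 genes (6 probe sets) act in both phases or in neither.

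A dividing cell copies its DNA in S phase and then parts the copies in mitosis. S phase genes encode the helicase that opens the DNA (the MCM proteins), the clamp that holds the polymerase (PCNA) and the enzymes that make deoxynucleotides. Mitotic genes encode the cyclins that trigger division, the kinetochore and spindle proteins that move the chromosomes, and the ubiquitin ligase parts that end mitosis. Muscle fibres have left the cell cycle and do not divide. After birth the cycling cells of muscle are the satellite cells, whose progeny fuse with growing fibres, together with vessel, connective tissue and blood-derived cells.

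The study sampled postnatal growth, with no treatment or mutant named in the labels. Tissue was taken within 24 hours after birth (day 0) and on days 7, 14 and 21, with 3 biological replicates an age and 1 Affymetrix porcine array for each, 12 in all. The muscle, the breed and the sex, and whether a replicate was a single animal, are not given in the sources used here. The measurement was the brightness of each probe set, scaled in every array to the same trimmed mean (500.1), and changes below are log2 differences of age means ± SE with 3 arrays an age. A gene with several probe sets was represented by the brightest over all 12 arrays. Adjusted p-values are from limma with Benjamini-Hochberg adjustment over the 23999 probe sets that are not controls, and a call is an adjusted p under 0.05. Because whole tissue was measured, a lower signal from fewer cycling cells and one from less RNA per cell cannot be told apart.

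Median signals of the 12 arrays lay between 146.2 and 172.6, and a probe set is called dim at an age where its mean fell under 90.3, the 40th percentile of all probe sets. Over all ages 27 of the 39 cell cycle probe sets were above that limit, made up of 8 of 14 in S phase, 14 of 19 in mitosis and 5 of 6 in the remaining class. At day 0, 22 were dim. Several array measures differed at day 0. The log2 ratio of 3′ to 5′ poly-A spike signals was 0.37 to 0.67 at the later ages, against 0.66 to 1.59 at day 0, and the highest value belonged to day 0 replicate 2, while replicates 1 and 3 (0.69 and 0.66) were near the highest later one. The hybridization controls averaged 12.55 ± 0.13 (log2, SD, n = 9) at the later ages, against 12.20 ± 0.09 (SD, n = 3) at day 0, without overlap. The 28S ribosomal RNA probe sets read 12.08 to 12.79 (log2) later, against 11.04 to 11.89 at day 0, and on the first principal component of the probe sets above the dim limit the later arrays lay at 10.8 to 25.2, against -62.7 to -35.0 for day 0, where replicate 3 was the nearest to the later ones. The part of these measures in the changes against day 0 was not tested, except where a covariate or scaling is named below. Markers of muscle fibres were bright on every array, with a summed signal over 12 measured markers of 390692 to 534976 at the later ages, against 279114 to 392530 at day 0.

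The cell cycle genes had one dominant shape over the 4 ages, a low newborn level, a peak at day 7 and an intermediate level afterwards. Day 7 held the highest mean in 27 of 30 genes, including 16 of 16 mitotic genes and 6 of 8 S phase genes. The exceptions were RRM1 and CDKN3, highest at day 0, and MCM4, highest at day 21. A second MCM4 probe set, dim at days 0, 14 and 21, had its highest mean at day 7. Day 0 held the lowest mean in 24 genes and day 14 in the other 6, of which 4 were S phase genes. In the limma F test for any change over the 4 ages, 12 of 39 probe sets were called, where 4.31% of all probe sets were. They were 8 of 19 mitotic probe sets, 4 of 6 that act in both phases or neither, and 0 of 14 S phase ones. The count fell to 7 when any 1 of day 0 replicates 1 and 2 and day 7 replicates 1 and 3 was left out. Calls over all probe sets then were 643, 445, 761 and 754, against 1035 with every array. With the spike ratio as a covariate the member count was 2, and 145 of all probe sets were called.

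**Figure D1:**
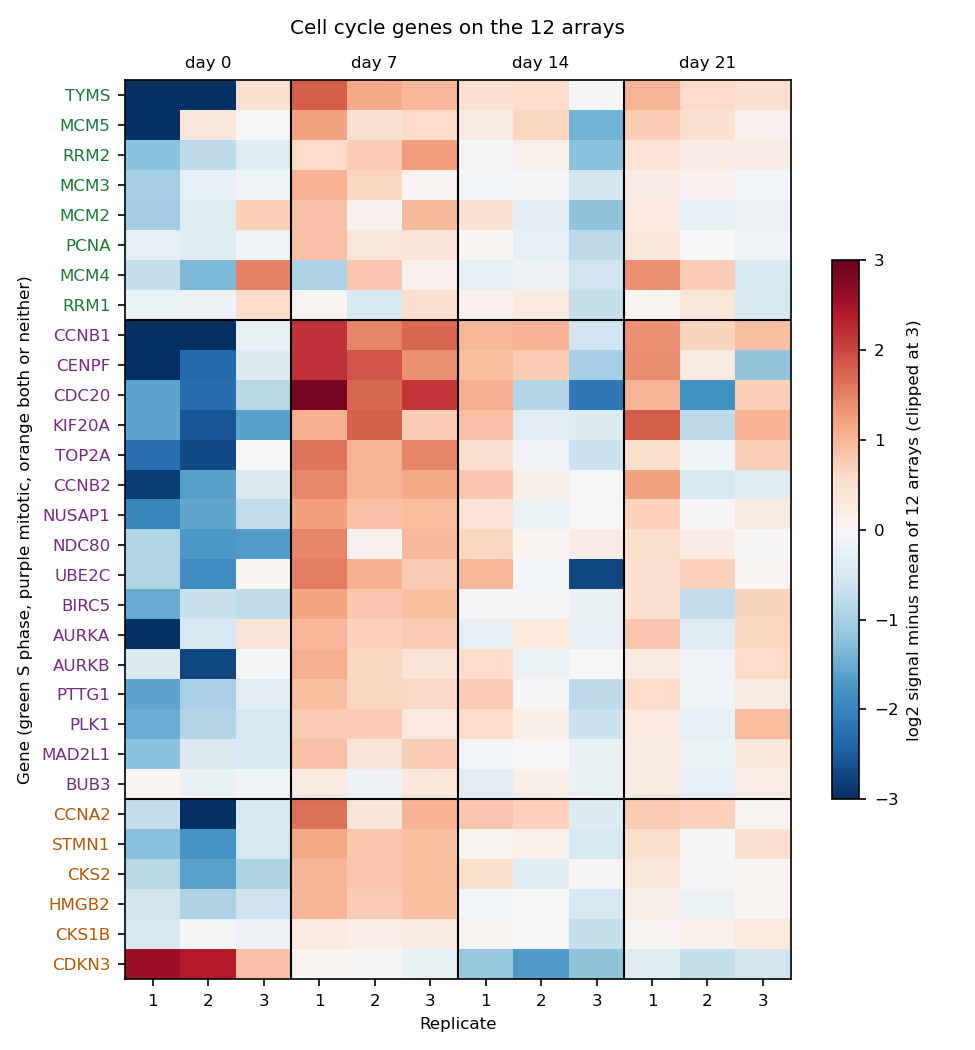
Signals of the 30 cell cycle genes (rows) on the 12 arrays (columns, 3 replicates an age in order of age), as log2 signal minus the gene's mean over all arrays, with colours clipped at 3. The day 7 columns are the reddest in most rows, day 0 replicate 3 is paler than the other day 0 arrays, and CDKN3 runs the opposite way in its day 0 columns.

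Most of the first-week rises were in mitotic genes. Between day 7 and day 0, 18 of 39 cell cycle probe sets were called, 17 higher and 1 lower, where 4.25% of all probe sets were (2.73% higher and 1.53% lower). With arrays put on the scale of the hybridization controls 15 members were higher and 1 lower, and the split of all probe sets was 310 higher and 1194 lower, against 654 and 367. Of 19 mitotic probe sets 12 rose (11 genes) and 0 fell, and of 14 S phase probe sets 2 rose and 0 fell. In the class of both phases or neither 3 rose and 1 fell. The rises were between 1.38 and 5.04 on the log2 scale (2.60-fold to 33.0-fold), or between 1.28 and 3.35 for the rising genes given below with all 12 signals once an offset of 29.7 was put on all signals, with adjusted p-values of all 18 calls between 0.00122 and 0.0360. The median change was 2.16 in mitotic genes, 0.98 in S phase genes and 1.82 in the third class, against 0.03 over all probe sets. Over the 6765 genes with a symbol, 1 probe set each, it was -0.02. Of the 10069 probe sets with a symbol 367 were called higher and 231 lower. Without regard to calls, 28 of 30 genes were higher at day 7, and 26 when arrays were scaled on the hybridization controls, where BUB3 and MCM4 changed side. The 3 day 7 signals lay above all 3 day 0 signals in 28 of 39 probe sets, where 12% of all probe sets did so.

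Of the 18 calls, 9 were of probe sets that were dim at day 0, so the size of those changes rests on low newborn signals. The count was 10 without day 7 replicate 1 and 11 without day 7 replicate 2, when 377 and 349 of all probe sets were called, and 6 with the poly-A covariate, when 166 of all were.

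CCNB1, the B-type cyclin that activates the kinase of mitotic entry, had signals of 5.0, 8.1 and 149 at day 0, 785, 483 and 571 at day 7, 350.5, 359.9 and 116 at day 14 and 453, 278 and 326 at day 21. The 3 arrays of day 7 were the brightest of all 12, and day 0 replicate 3 was far above the other newborn arrays and above day 14 replicate 3. CCNB1 rose by 5.04 ± 0.92 in the first week (limma adjusted p = 0.00845), or by 3.35 with that offset. Its relative CCNB2 had signals of 16.8, 38.8 and 89.6 at day 0, 326, 246 and 267 at day 7, 212, 136 and 122 at day 14 and 277, 85.7 and 91.6 at day 21. The day 7 signals lay above those of day 0, and at day 21 replicate 1 was far above the other arrays. CCNB2 rose by 2.84 ± 0.58 (adjusted p = 0.0154).

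Among proteins that act on chromosomes, TOP2A, the topoisomerase that untangles sister DNA molecules, read 85.2, 62.5 and 405 at day 0, 1273, 830.1 and 1139 at day 7, 581, 374 and 264 at day 14 and 594, 383 and 669 at day 21. Day 0 replicate 3 exceeded day 14 replicates 2 and 3 and day 21 replicate 2, while day 7 lay above every other array. Its rise was 3.04 ± 0.53 (adjusted p = 0.00702). NDC80, which ties kinetochores to microtubules, read 55.4, 31.6 and 32.8 at day 0, 286, 113 and 205 at day 7, 162, 109 and 124 at day 14 and 149, 123 and 106 at day 21. Its newborn signals were below all 9 later ones, and its rise was 2.28 ± 0.43 (adjusted p = 0.00997). BIRC5 (survivin), a member of the complex that corrects chromosome attachment, read 84.2, 150.2 and 141 at day 0, 539.6, 416 and 447 at day 7, 235, 232 and 204 at day 14 and 328, 143 and 378 at day 21. The day 7 signals stood above all others, and BIRC5 rose by 1.94 ± 0.35 (adjusted p = 0.00843). CENPF, a kinetochore protein, read 6.8, 18.6 and 71.0 at day 0, 422, 348 and 244 at day 7, 175, 159 and 46.3 at day 14 and 246, 114 and 41.4 at day 21. Day 7 was again above all newborn arrays, and day 0 replicate 3 was brighter than replicate 3 of days 14 and 21. CENPF rose by 3.99 ± 0.82 (adjusted p = 0.0159).

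NUSAP1, MAD2L1 and KIF20A, of the spindle, its checkpoint and the dividing cell, also rose. NUSAP1, which bundles spindle microtubules, had signals of 95.2, 124 and 220.3 at day 0, 865, 684 and 698 at day 7, 495, 324 and 368 at day 14 and 601, 381 and 445 at day 21. All 9 later signals exceeded the newborn ones. It rose by 2.44 ± 0.30 (adjusted p = 0.00125), and its other probe set by 2.45 ± 0.39 (adjusted p = 0.00441). MAD2L1, which holds back chromosome separation until all kinetochores are attached, had signals of 183, 318 and 313 at day 0, 792, 565 and 716 at day 7, 406, 424 and 365 at day 14 and 519.9, 372 and 543 at day 21. The day 7 arrays were the brightest and day 0 the dimmest, without overlap with any other age, for a rise of 1.38 ± 0.25 (adjusted p = 0.00817). KIF20A, a kinesin of cell division, was dim at all 4 ages, with signals of 10.4, 5.2 and 10.1 at day 0, 65.6, 109 and 52.1 at day 7, 57.5, 25.0 and 23.7 at day 14 and 109.5, 18.3 and 64.6 at day 21. Every later array was brighter than the newborn ones, with a wide spread at day 21, and KIF20A rose by 3.14 ± 0.75 (adjusted p = 0.0328).

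Of the genes that end mitosis, CDC20, which activates the anaphase ubiquitin ligase, had signals of 14.6, 9.0 and 24.7 at day 0, 314, 144 and 192 at day 7, 93.7, 23.7 and 9.9 at day 14 and 88.9, 12.5 and 71.7 at day 21. It was dim at every age but day 7, and at days 14 and 21 at least 1 array was within the newborn range. CDC20 rose by 3.80 ± 0.89 in the first week (adjusted p = 0.0301). PTTG1 (securin), a target of that ligase, rose by 1.69 ± 0.40 (adjusted p = 0.0316). UBE2C, its ubiquitin-conjugating enzyme, was at 2.04 ± 0.71 (adjusted p = 0.134) and its second probe set, dim at all ages, at -0.39 ± 0.79. The mitotic kinases also missed the threshold, with AURKA at 1.92 ± 0.71 (adjusted p = 0.161), AURKB at 1.78 ± 0.54 (0.0822) and PLK1 at 1.56 ± 0.50 (0.10). A second AURKA probe set, dim at day 0, was at 2.38 ± 0.66 (limma adjusted p = 0.058), with no overlap between day 7 and day 0. BUB3, a checkpoint protein, had the smallest change of the class, 0.25 ± 0.20 with a 95% interval of -0.17 to 0.67 (adjusted p = 0.556).

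Several first-week calls depended on a single array or setting. Those on BIRC5, MAD2L1, NUSAP1, CKS2, HMGB2 and STMN1 held under all 20 alternatives, with adjusted p-values up to 0.0473. Without day 7 replicate 1 the call was lost on NDC80 (1.98, adjusted p = 0.0591), CCNB2 (2.72, 0.0678) and CENPF (3.81, 0.0705), and on CDC20, KIF20A, TYMS and RRM2. CCNB2 was also lost without day 7 replicate 2 (0.0548) or 3 (0.0536), and CENPF without day 0 replicate 2 (0.0512) or day 7 replicate 2 (0.0676). CDC20, KIF20A and TYMS were lost without any 1 of day 0 replicates 1 and 2 and day 7 replicates 1, 2 and 3. CCNB1, TOP2A and CDKN3 held without each array in turn, and were lost with no variance trend (adjusted p = 0.0600, 0.0564 and 0.0541) or with the poly-A covariate (4.11, 2.23 and -1.63, adjusted p = 0.155, 0.154 and 0.126). The poly-A covariate also took the calls from NDC80 (2.05, limma adjusted p = 0.134), CCNB2, CENPF, CDC20, KIF20A, TYMS and RRM2. With no variance trend the same genes except NDC80 lost theirs. The call on PTTG1 was not followed by itself under the alternatives.

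**Figure D2:**
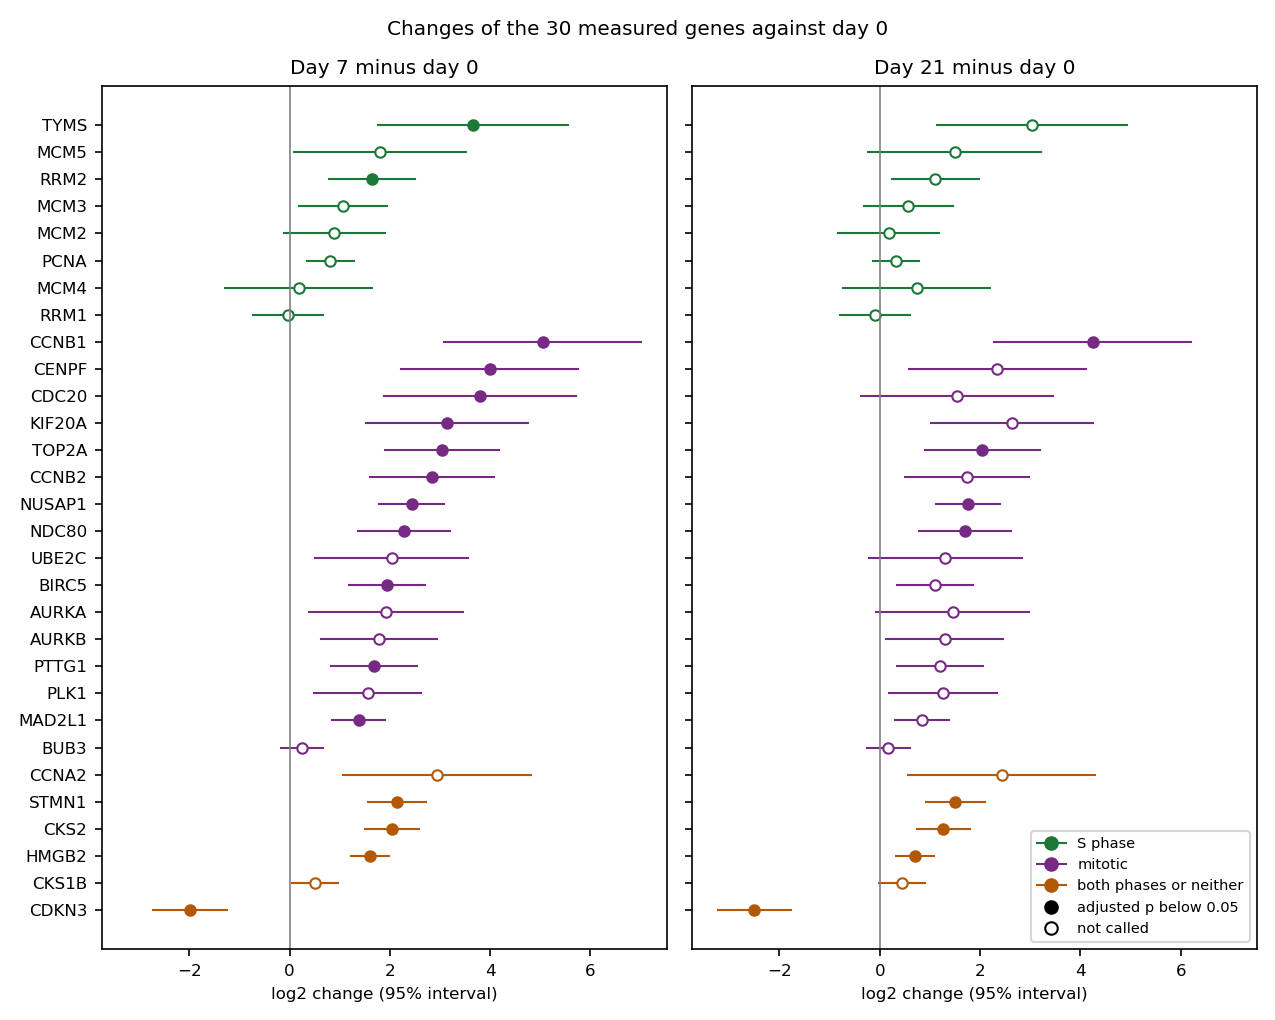
Change of each of the 30 genes on the log2 scale at day 7 (left) and day 21 (right), each minus day 0, with 95% intervals, coloured by class. Filled points passed an adjusted p of 0.05. Filled points are mainly mitotic (purple) and of the third class (orange), CCNB1 lies farthest right in both panels, and CDKN3 lies left of 0 in both.

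S phase genes moved less in the first week, and only TYMS and RRM2 were called. Both make DNA precursors. TYMS, thymidylate synthase, had signals of 8.2, 3.6 and 98.9 at day 0, 257, 159 and 144 at day 7, 100.5, 106 and 69.2 at day 14 and 146, 109 and 102 at day 21. The newborn signals were dim, with day 0 replicate 3 far above the other newborn arrays and close to the levels of days 14 and 21. TYMS rose by 3.66 ± 0.88 (limma adjusted p = 0.0334), while its second probe set, dim at all ages, was at -0.73 ± 1.08. RRM2, the subunit of ribonucleotide reductase that is made mainly in cycling cells, had signals of 58.3, 79.9 and 106 at day 0, 205, 227 and 324 at day 7, 133, 153 and 58.5 at day 14 and 186, 163 and 163 at day 21. The day 7 arrays lay above all newborn ones, and day 14 replicate 3 was within the newborn range. RRM2 rose by 1.64 ± 0.40 (adjusted p = 0.036), a call lost in 13 of 20 alternatives, including those without day 0 replicate 1 or 2, each day 7 replicate, or day 21 replicate 1 or 3. RRM1, the other subunit of the enzyme, was at -0.03 ± 0.32 with a 95% interval of -0.72 to 0.67 (adjusted p = 0.979).

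PCNA, the sliding clamp of the polymerase, had signals of 942, 869 and 1015 at day 0, 2069, 1444 and 1508 at day 7, 1170.3, 923 and 660.4 at day 14 and 1433, 1116 and 1022 at day 21. The 3 day 7 signals lay above all newborn ones, and day 14 replicate 3 was below them. Its change at day 7 was 0.81 ± 0.22, with a 95% interval of 0.35 to 1.28 and an adjusted p of 0.0507, and it was called in 5 of 20 alternatives, including with dim probe sets left out (0.0402). Of the helicase genes, MCM2 read 109, 174 and 372 at day 0, 413, 248 and 445 at day 7, 308, 178 and 97.5 at day 14 and 278, 185 and 199 at day 21. Day 0 replicate 3 reached the day 7 range, and the change was 0.89 ± 0.47 (-0.11 to 1.90, adjusted p = 0.341). Another probe set of MCM2 did not overlap between the ages, at 1.16 ± 0.41 (adjusted p = 0.139), and the remaining one, dim at all ages, was at 0.13 ± 1.22. MCM5 read 13.1, 188 and 149.8 at day 0, 342, 204 and 225 at day 7, 179, 231 and 55.8 at day 14 and 249, 206 and 160.5 at day 21. Replicate 1 of day 0 was far below the other newborn arrays, and the change was 1.81 ± 0.80 (0.09 to 3.53, adjusted p = 0.25), while its other probe sets were at 1.99 ± 0.92 (0.278) and, dim at all ages, at 0.03 ± 0.90. MCM3 was at 1.06 ± 0.41 (0.18 to 1.95, adjusted p = 0.18) and MCM4 at 0.18 ± 0.68 (adjusted p = 0.93), with a second MCM4 probe set at 1.44 ± 0.72.

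**Figure D3:**
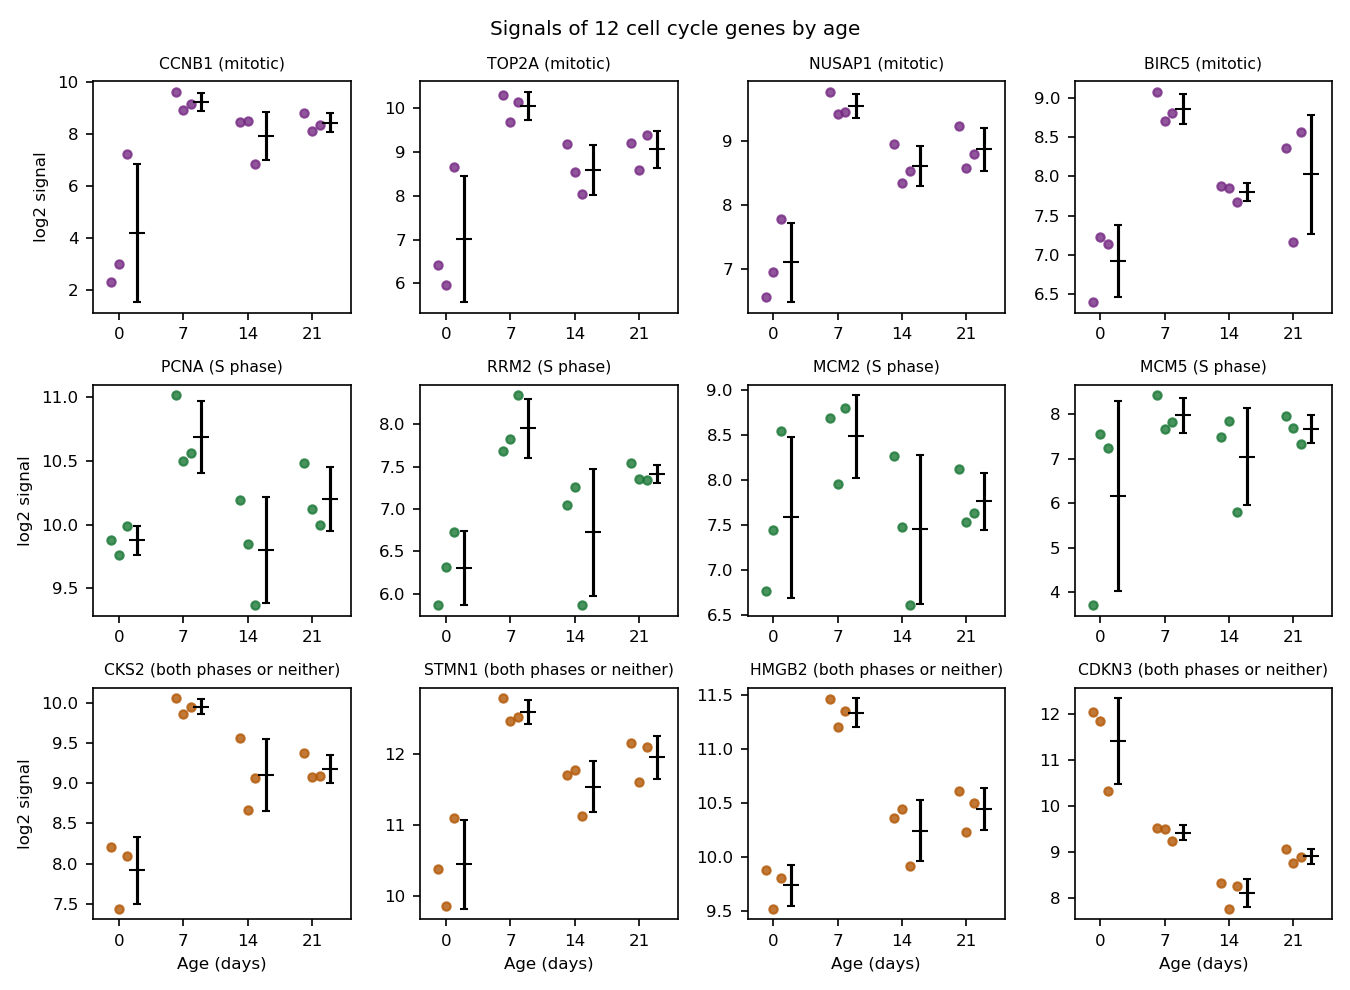
Signals (log2) of 12 cell cycle genes on each array by age in days, with the age mean ± SD in black beside the 3 points. In CCNB1, TOP2A, NUSAP1, BIRC5, PCNA, RRM2, MCM5, CKS2, STMN1 and HMGB2 the day 7 points lie above every day 0 point, in MCM2 they overlap, and in CDKN3 day 0 is the highest.

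The class of both phases or neither held 3 of the first-week rises and the single fall. HMGB2, a chromatin protein abundant in dividing cells, had signals of 939.6, 734 and 895 at day 0, 2817, 2348 and 2603 at day 7, 1311, 1395 and 966 at day 14 and 1562, 1201 and 1444 at day 21. Day 7 stood above all other ages and every later array above the newborn ones. HMGB2 rose by 1.60 ± 0.18 in the first week (limma adjusted p = 0.00122). STMN1 (stathmin), which takes microtubules apart, had signals of 1327, 926 and 2185 at day 0, 7024, 5609 and 5869 at day 7, 3337, 3501 and 2233 at day 14 and 4534, 3104 and 4392 at day 21. Every later array exceeded the newborn ones, and STMN1 rose by 2.14 ± 0.27 (adjusted p = 0.00137). CKS2, a small partner of cyclin-dependent kinases, had signals of 296, 174 and 274 at day 0, 1066, 932 and 988 at day 7, 755, 408 and 538 at day 14 and 668, 539 and 544 at day 21. Its ages ran in the same order with no overlap between day 0 and any later age, and the rise was 2.04 ± 0.25 (adjusted p = 0.00125). CKS1B, its relative, was at 0.52 ± 0.21 (95% interval 0.06 to 0.97, adjusted p = 0.214), and CCNA2, the cyclin of S phase and mitosis, at 2.94 ± 0.87 (adjusted p = 0.0748).

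CDKN3, which takes phosphates off cyclin-dependent kinases, went the other way. Its signals were 4226, 3697 and 1295 at day 0, 741, 727 and 602 at day 7, 322, 219 and 306 at day 14 and 541, 432 and 479.9 at day 21. Replicates 1 and 2 of day 0 were far above all later arrays, and replicate 3 of day 0, lower than its group, was still above every later one. CDKN3 fell by 1.99 at day 7 (-1.99 ± 0.34, limma adjusted p = 0.00636) and was at -2.50 ± 0.34 at day 21 (adjusted p = 0.00145), both against day 0. It was the 1 cell cycle probe set whose day 7 signals lay wholly below day 0, where 10.2% of all probe sets did so.

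After day 7 the means of most genes were lower, but no call was made. At day 14 against day 7, 0 of 39 probe sets were called, where 0.00417% of all probe sets (1) were, and 17 had an unadjusted limma p under 0.05, against 1352 of all. The lowest adjusted p was 0.245, for HMGB2 (-1.09 ± 0.18). All 30 genes had a lower mean at day 14, with medians of -0.91 in mitotic genes, -0.90 in S phase genes and -0.95 in the third class, against 0.03 over all probe sets. Over all genes with a symbol, 1 probe set each, the median was -0.0049. The signals of day 14 lay wholly below those of day 7 in 20 of 39 probe sets (5 in S phase, 10 in mitosis and 5 in the third class), where 6.05% of all probe sets did so, and wholly above in 0 (6.73% of all). Day 14 replicate 3 was the lowest of its age in 24 of 30 genes. At day 21 against day 14, 0 were called (0% of all probe sets), and 2 had an unadjusted p under 0.05, against 871 of all. The medians were 0.25 in mitotic genes, 0.39 in S phase genes and 0.30 in the third class, with 27 of 30 genes higher at day 21. The signals lay wholly above those of day 14 in 2 probe sets (4.42% of all) and wholly below in 0 (4.39% of all). At day 21 against day 7, 0 were called (0.00417% of all probe sets were), 9 had an unadjusted p under 0.05 against 1486 of all, and 29 of 30 genes were lower. The signals of day 21 lay wholly below those of day 7 in 15 probe sets (6.28% of all) and wholly above in 0 (7.76% of all). No member was called in these 3 comparisons under any of the 20 alternatives either.

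At day 21 several mitotic genes were still above the newborn level. Between day 21 and day 0, 9 of 39 probe sets were called, 8 higher and 1 lower, where 6.02% of all probe sets were (3.54% higher and 2.48% lower). On the hybridization control scale 4 were higher and 1 lower, and all probe sets split into 341 higher and 1962 lower, against 849 and 596. The 5 mitotic ones were both probe sets of NUSAP1 (1.76 ± 0.30 and 1.98 ± 0.39), CCNB1 (4.24 ± 0.92, or 2.61 with the offset), TOP2A (2.05 ± 0.53) and NDC80 (1.69 ± 0.43). CKS2 (1.27 ± 0.25), STMN1 (1.51 ± 0.27) and HMGB2 (0.71 ± 0.18) rose too, and 0 of 14 S phase probe sets passed. Adjusted p-values of the 9 were between 0.00145 and 0.0377, and all 9 had been called at day 7, in a comparison that shares the day 0 arrays. The S phase genes nearest to the threshold were TYMS (3.04 ± 0.88, adjusted p = 0.0596) and RRM2 (1.10 ± 0.40, 0.135), while PCNA was at 0.33 ± 0.22 (0.451), MCM2 at 0.18 ± 0.47 (0.889) and MCM5 at 1.49 ± 0.80 (0.331). On the scale of the hybridization controls PCNA was at -0.054 and MCM2 at -0.20.

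The median change at day 21 was 1.50 in mitotic genes, 0.65 in S phase genes and 0.99 in the third class, against 0.07 over all probe sets. Over all genes with a symbol, 1 probe set each, it was 0.01. Of the 10069 probe sets with a symbol 463 were called higher and 378 lower. The signals of day 21 lay wholly above those of day 0 in 20 of 39 probe sets (5 in S phase, 10 in mitosis and 5 in the third class), where 12.9% of all probe sets did so, and wholly below in CDKN3 (9.9% of all). Mitotic genes called at day 7 that missed the threshold here were BIRC5 (1.10 ± 0.35, adjusted p = 0.0857), MAD2L1 (0.84 ± 0.25, 0.0640), CCNB2 (1.74 ± 0.58, 0.101), CENPF (2.34 ± 0.82, 0.119), KIF20A (2.63 ± 0.75, 0.056), CDC20 (1.54 ± 0.89, 0.374) and PTTG1 (1.20, 0.102). The count was 5 without day 0 replicate 2, day 21 replicate 1 or day 21 replicate 3. Of all probe sets 910, 672 and 589 were called in these fits, against 1445 with every array. With the poly-A covariate 3 members were called, and 718 of all probe sets. Day 21 replicate 2 was the lowest of its age in 18 of 30 genes; without it BIRC5 (1.54, adjusted p = 0.014) and KIF20A (3.36, 0.0229) were called. Without day 0 replicate 3, the brightest newborn array for most of these genes, TYMS (4.44, adjusted p = 0.000561), CCNB2 (2.34, 0.0219), CENPF (3.23, 0.0236) and MAD2L1 (0.97, 0.0488) were called. CCNB1 missed the threshold in the absence of day 0 replicate 1 (3.31, adjusted p = 0.0513), day 0 replicate 2 (3.66, 0.0631), day 21 replicate 1 (4.05, 0.0642) or day 21 replicate 3 (4.29, 0.0561). HMGB2 missed the threshold when day 0 replicate 2 (0.60, 0.0976), day 21 replicate 1 (0.63, 0.121) or day 21 replicate 3 (0.69, 0.105) was left out, and stood at 0.33 (0.313) relative to the hybridization controls. NDC80 missed it when day 0 replicate 2 or 3 or any day 21 array was left out (adjusted p up to 0.118). TOP2A missed it when day 0 replicate 1 or 2, day 21 replicate 1 or 3, any day 7 array or day 14 replicate 2 was left out (up to 0.138). Quantile normalization also took the call from NDC80, and the hybridization control scale those from NDC80, TOP2A, CKS2 and HMGB2. With no variance trend CCNB1, TOP2A, CKS2, STMN1 and HMGB2 were lost, and with the poly-A covariate CCNB1, TOP2A, NDC80, CKS2 and HMGB2. Of the 9 calls, those on NUSAP1 (its brighter probe set) and CDKN3 held under all 20 alternatives.

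Set side by side, the S phase and mitotic classes both had their highest level at day 7 and their lowest at day 0, with a wider span in the mitotic genes. The class level, the mean over its genes of log2 signal centred on each gene, was -1.37 ± 0.77, 1.08 ± 0.24, -0.01 ± 0.57 and 0.30 ± 0.48 (SD, n = 3) in mitotic genes at days 0, 7, 14 and 21. In S phase genes it was -0.66 ± 0.89, 0.60 ± 0.11, -0.20 ± 0.54 and 0.26 ± 0.31 (SD, n = 3) at the same ages. Genes of the third class were at -0.54 ± 0.47, 0.67 ± 0.18, -0.24 ± 0.30 and 0.10 ± 0.13. The single newborn arrays of the mitotic class stood at -1.90, -1.72 and -0.48, of which the last was above day 14 replicate 3 (-0.60) and below the other later arrays. Those of the S phase class stood at -1.39, -0.91 and 0.33, so that replicate 3 lay above all 3 arrays of day 14 (0.12, 0.10 and -0.82). Day 0 replicate 3 was the highest of its age in 20 of 30 genes, and over all 30 its median deviation from the mean of its age was 0.64.

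The gap between the classes was not tested, since the genes were not chosen independently of these results. The median SE of a change was 0.44 in S phase genes and 0.54 in mitotic genes.

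**Figure D4:**
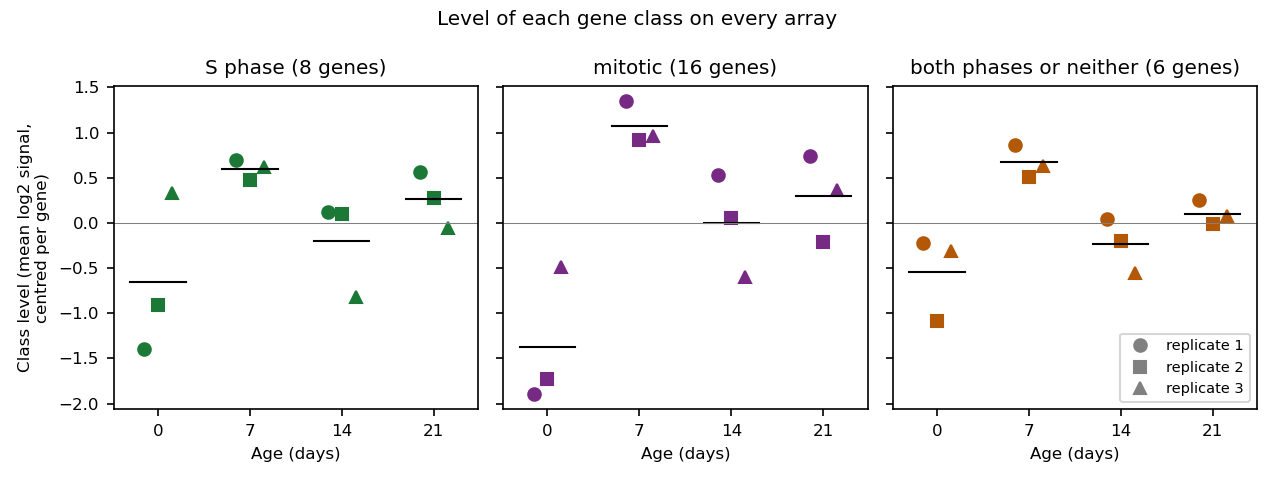
Class level on every array by age in days, as the mean over the class's genes of log2 signal centred per gene, with a symbol for each replicate and a black line at the age mean. All 3 classes peak at day 7, where the 3 arrays lie close together, and the newborn arrays are spread widest, with replicate 3 the highest in the S phase and mitotic classes.

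Other genes of the cell cycle were counted in the same way. Of all probe sets, 4.25% were called at day 7 against day 0 and 6.02% at day 21 against day 0. Of 61 further mitotic genes 20 were measured, of which 7 rose and 0 fell at day 7, with a median of 1.68 and 19 of 20 higher than at day 0. DLGAP5, a spindle assembly factor, rose by 2.86 ± 0.45 (limma adjusted p = 0.00362). Its signals were 19.4, 47.9 and 68.2 at day 0, 399, 235 and 260.1 at day 7, 145, 155 and 116 at day 14 and 231, 184 and 135 at day 21, with no overlap between newborn and later arrays. RACGAP1, which acts in the cleavage of the cell, rose by 2.46 ± 0.38 (0.00362), and LMNB1, a protein of the nuclear lamina, by 2.38 ± 0.40 (0.00542). At day 21, 5 of the 20 rose and 0 fell, with a median of 1.29. Of 49 further S phase genes 27 were measured, 18 of them higher at day 7 with a median of 0.26. Only 1 of the 27 was called at day 7, a rise of the histone chaperone ASF1B (1.89 ± 0.48, adjusted p = 0.0429). At day 21 their median was 0.01 and again 1 of the 27 was called. This was a fall of DNMT1, the enzyme that copies DNA methylation (-0.92 ± 0.26, adjusted p = 0.0482).

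Regulators of entry into the cycle, of arrest and of protein breakdown had few calls at day 7. Of 24 genes that control entry (cyclins and their kinases, E2F and RB family factors and MYC) 8 were measured, and TFDP2, a partner of E2F factors, rose at day 7 (1.10 ± 0.21, adjusted p = 0.00997), as it did at day 21 (1.01, 0.0115). Of 18 inhibitors and arrest genes 15 were measured, and CCNG2, a cyclin linked to arrest, rose at day 7 (1.48 ± 0.29, 0.0137). At day 21 these had 3 rises and 1 fall, where 6.02% of all probe sets were called (4.25% at day 7). CCNG2 (1.54 ± 0.29), CCNG1 (0.58) and the kinase inhibitor CDKN2C (2.04) rose and the stress gene GADD45G fell (-1.39 ± 0.31, adjusted p = 0.0193). Of 19 ubiquitin ligase subunits of the cycle 9 were measured, with 0 calls at day 7 and a fall of CDC23, a subunit of the anaphase ligase, at day 21 (-1.16 ± 0.24, 0.0122). The 3 medians at day 7 were 0.51, 0.45 and 0.02.

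Some cell type markers were called in the same week, where 4.25% of all probe sets were. Of 12 muscle fibre markers 1 rose and 0 fell. Of 10 endothelial markers 3 rose at day 7 against day 0 (CDH5 by 1.43 ± 0.22, PECAM1 by 0.88 ± 0.16 and CLDN5 by 1.24 ± 0.26) and 0 fell, and their summed signal was 9847 to 11020.4 at day 7, against 6142 to 6987 at day 0. Of 4 smooth muscle and pericyte markers RGS5 (1.51 ± 0.19) and ACTA2 (1.07 ± 0.18) rose, with sums of 20877 to 24487 at day 7, against 10918 to 12737 at day 0. Of 9 macrophage markers LAPTM5 rose (1.55), with sums of 3052 to 4792 at day 7, against 1862 to 2857 at day 0. Of 9 lymphocyte markers only CCL5 was called (2.03), and without regard to calls 5 of the 9 were higher at day 7. Their sums were 417 to 645 at day 7, against 350.2 to 485 at day 0, with overlap. CD3D and CD3E, of the T cell receptor complex, were dim at both ages. Of 5 satellite cell and myoblast markers (PAX7, MYOG and CDH15 had no probe set under these symbols) 0 were called, with sums of 2405 to 3775 at day 7, against 2256 to 4368 at day 0. Of 5 erythroid markers HBB fell (-0.98 ± 0.23), with sums of 1392 to 1584 at day 7, against 1736 to 2856 at day 0. The 7 fibroblast, 4 adipocyte and 3 Schwann cell markers had 0 calls at day 7. The part of these cell types in the cell cycle changes was not tested.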

How the data were processed

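The deposited values were linear signal intensities per probe set, made by the authors with MAS5, per the submitters' processing notes (version not given). All arrays had a 2% trimmed mean of 500.1, and no further normalization was applied. Per the labels' protocols, total RNA was extracted with Trizol and labelled with biotin. Log2 signals of all 12 arrays were analysed with limma 3.58.1 under R 4.3.3, as 1 mean per age, with eBayes and a variance trend, without a filter on signal. The 124 control probe sets were left out, and p-values were adjusted over 23999. Symbols came from the array's probe table, and all 39 probe sets matched the same current symbol by Entrez identifier.

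The members, the classes and the other lists were chosen with earlier results of these data known. Values of all 12 arrays were given for members called in any comparison, in order of the F test up to 16, and for PCNA, MCM2 and MCM5 always, and up to 3 called genes of each other list were named. In the mitotic list HMMR, CDCA3, CDC25B and MYBL2 also rose at day 7.

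Alternatives were the lowest 40% of probe sets left out, quantile normalization, scaling on 27 hybridization control probe sets, an offset (the 20th percentile, 29.7), no variance trend, array weights, the poly-A spike ratio (12 probe sets at each end) as a covariate, the replicate number as a block, and each array left out. Class medians were also taken over all probe sets of a gene, and with the third class counted as mitotic. Correlations between arrays of 1 age were 0.912 to 0.954, and no arrays were identical. Precision is limited by the number of arrays, and p-values weigh differences of age means against the spread between these samples within an age. Promoter motifs were not analysed here. Figures were drawn with matplotlib 3.10.9.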

Additional observations from a re-analysis of the deposited data

How the results depend on the processing

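With the poly-A covariate, the count of cell cycle probe sets called was 6 at day 7 against day 0, 3 at day 21 against day 0 and 2 in the F test, against 18, 9 and 12 as reported. With no variance trend it was 8, 4 and 4, and on the hybridization control scale 5 at day 21 against day 0. Over all probe sets the calls were 166, 718 and 145 with the covariate and 241, 448 and 120 with no trend, fewer than the 1021, 1445 and 1035 as reported. On the hybridization control scale they were more, at 1504, 2303 and 1648. Scaling on the hybridization controls shifted the median of all probe sets to -0.28 at day 7 and -0.31 at day 21 (0.03 and 0.07 as reported). Leaving out each array gave 10 to 22 member calls at day 7, 5 to 13 at day 21 and 7 to 13 in the F test. Calls over all probe sets then ran from 349 to 1470, from 589 to 1781 and from 445 to 1208.

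The change of PCNA at day 21 against day 0 reversed to -0.054 on the hybridization control scale. That of MCM2, 0.18 and not called, reversed to -0.20 on that scale, to -0.23 without day 0 replicate 1 and to -0.0029 without day 21 replicate 1, in a range of -0.23 to 0.65 over arrays left out. The cause was not tested. Median changes kept their direction under all alternatives, with 1.69 to 2.59 for mitotic genes and 0.67 to 1.30 for S phase genes at day 7, and 1.05 to 1.85 and 0.27 to 1.02 at day 21. Same-numbered arrays correlated at -0.198 to 0.112 in their deviations and 3 of 12 correlated best with their own number, so no pairing was seen. With 3 arrays an age, these values cannot settle whether equal numbers share an origin. With the replicate block 17 cell cycle probe sets were called at day 7, 9 at day 21 and 9 in the F test. Over all probe sets the calls with the block were 751, 1176 and 724. Of 39 probe sets 22 were dim at day 0, and with the offset the medians at day 7 were 1.69 in mitotic genes and 0.80 in S phase genes.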
